A study of Mus musculus with 2 samples.

Results

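Microglia that carried at least 1 transcript of Cdkn1a and were not cycling were examined in mouse brain bearing KR158 cells, a mouse glioblastoma line. A kept barcode had at least 1000 UMIs (distinct tagged RNA molecules), at least 500 genes and at most 10% mitochondrial UMIs. A barcode was taken as a microglial cell when at least 3 of P2ry12, Tmem119, Siglech, Gpr34 and P2ry13 were detected. It could show at most 1 of Cldn5, Mog, Aqp4, Dcx and Cd3e, at most 2 of 5 border macrophage genes, at most 2 of 5 cell cycle genes and at most 2 of 8 interferon genes. Cells of this gate with at least 1 Cdkn1a UMI are called Cdkn1a-positive, and those with 0 Cdkn1a-negative. There were 393 Cdkn1a-positive cells among 756 gated cells of the Plxnb2 cKO library and 109 among 1858 of the control library, that is 502 of 13466 kept barcodes. Because Cdkn1a and the gate genes chose the cells, their levels are given as a description.

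The cKO library came from a Cx3cr1 CreER/+ Plxnb2 fl/fl host and the control library from a Cx3cr1 CreER/+ Plxnb2 fl/+ host, so the control also carried the Cre allele and 1 floxed Plxnb2 allele. Both hosts received tamoxifen at 100 mg/kg from 3 days before the intracranial injection of KR158 cells and then every other day until 8 weeks, when tissue next to the injection site was dissociated with papain and sequenced by 3′ droplet RNA-seq. CreER is driven from the Cx3cr1 locus, which is active in microglia, border macrophages and some monocytes, so deletion is not limited to microglia. Each genotype is 1 library, so no test between genotypes is possible and cells are not replicates. All intervals below are 95% intervals for counting error only.

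Cdkn1a encodes p21, an inhibitor of cyclin-dependent kinases that holds cells in G1. Its best known activator is the transcription factor p53, which also drives genes of apoptosis (Bbc3, Bax), of cell cycle arrest and of growth-factor signalling restraint (Phlda3). Other signals, including TGF-beta, stress kinases and tissue dissociation, can raise Cdkn1a too, and in brain it is also expressed by cells other than microglia. Plexin-B2, encoded by Plxnb2, is a receptor for class 4 semaphorins.

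Cdkn1a lies at chr17:29090976-29100727 on the plus strand (GRCm38). The 250 bases before the first RefSeq start (GRCm38.p6), chr17:29090729-29090978, are shown because the cells were chosen by this gene's transcript. They are followed by the same window for Ccng1 (chr11:40755287-40755536, minus strand) and Bax (chr7:45466899-45467148, minus strand), p53 targets that were higher in the Cdkn1a-positive cells of the cKO library. Phlda3 (chr1:135765835-135766084, plus strand), the p53 target with the highest ratio, is shown last. Capitals mark matches to the p53 half-site, searched on both strands as that consensus. Sequences run 5′ to 3′ on the gene's strand.
Cdkn1a: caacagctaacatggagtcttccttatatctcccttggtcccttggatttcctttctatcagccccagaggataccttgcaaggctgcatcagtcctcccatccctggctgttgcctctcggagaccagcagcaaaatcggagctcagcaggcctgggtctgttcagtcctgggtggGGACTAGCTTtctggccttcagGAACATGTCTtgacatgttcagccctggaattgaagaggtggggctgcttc
Ccng1: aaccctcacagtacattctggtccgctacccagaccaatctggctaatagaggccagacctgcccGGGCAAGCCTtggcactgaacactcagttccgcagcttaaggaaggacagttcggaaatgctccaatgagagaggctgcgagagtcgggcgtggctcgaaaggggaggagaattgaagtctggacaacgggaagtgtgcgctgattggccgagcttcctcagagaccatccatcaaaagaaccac
Bax: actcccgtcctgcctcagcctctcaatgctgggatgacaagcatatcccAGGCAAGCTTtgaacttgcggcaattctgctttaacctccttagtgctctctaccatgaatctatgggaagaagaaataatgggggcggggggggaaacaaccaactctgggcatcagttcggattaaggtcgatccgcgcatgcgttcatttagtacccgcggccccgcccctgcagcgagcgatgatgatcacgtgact
Phlda3: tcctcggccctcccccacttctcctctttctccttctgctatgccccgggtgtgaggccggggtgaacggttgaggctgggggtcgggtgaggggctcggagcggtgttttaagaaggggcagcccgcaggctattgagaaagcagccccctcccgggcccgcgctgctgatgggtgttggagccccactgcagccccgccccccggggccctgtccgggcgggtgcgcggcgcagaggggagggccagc

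The Cdkn1a window held 2 matches, whose first bases lay at -73 and -51 from the start, and this start is 2790 bases upstream of the second RefSeq start of the gene. Ccng1 held 1 match at -185, Bax 1 at -201 and Phlda3 0. A match was present in 7.18% of the windows of 27025 genes. Among the measured p53 targets and regulators described below, 5 of the 20 with a window held one (25%), including 2 of the 11 that were 1.5-fold or more higher (18.2%). A match is a run of letters and was not tested as a binding site.

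Cdkn1a was detected in a larger share of microglia in the cKO library than in the control library. The share of gated cells with a Cdkn1a UMI was 52.0% (48.4 to 55.6%, exact Clopper-Pearson) in the cKO library and 5.87% (4.84 to 7.03%) in the control library. After each cell was thinned to 1000 UMIs the shares were 31.0% and 1.72%. In oligodendrocyte-marked cells, which should hold little Cdkn1a, the shares were 11.3% in the cKO library and 7.09% in the control library at median depths of 7463 and 6267 UMIs, and thinned they were 1.62% and 2.03%. The thinned share of cKO microglia was far above that background, while that of control microglia did not differ from it beyond counting error. In astrocyte-marked cells the thinned shares were 5.25% in the cKO library and 3.19% in the control library. Oligodendrocyte-marked cells were chosen with at most 2 of 10 endothelial markers, a limit that the microglial gate does not set. Over all gated cells, Cdkn1a stood at 567 CPM (counts per 1e6 UMIs of the set; Poisson interval 544 to 591) in the cKO library and at 29.5 CPM (25.8 to 33.5) in the control library. The level in oligodendrocyte-marked cells was 23.3 CPM (18.6 to 28.9) in the cKO library and 13.3 CPM (9.99 to 17.3) in the control library. In astrocyte-marked cells it was 95.5 CPM and 61.5 CPM. In control microglia the CPM was thus above that of oligodendrocyte-marked cells while the thinned share was not, and no order is read from the share. Barcodes of the cKO file with 1 to 100 UMIs, which hold free RNA, had 165 CPM of Cdkn1a.

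**Figure D1:**
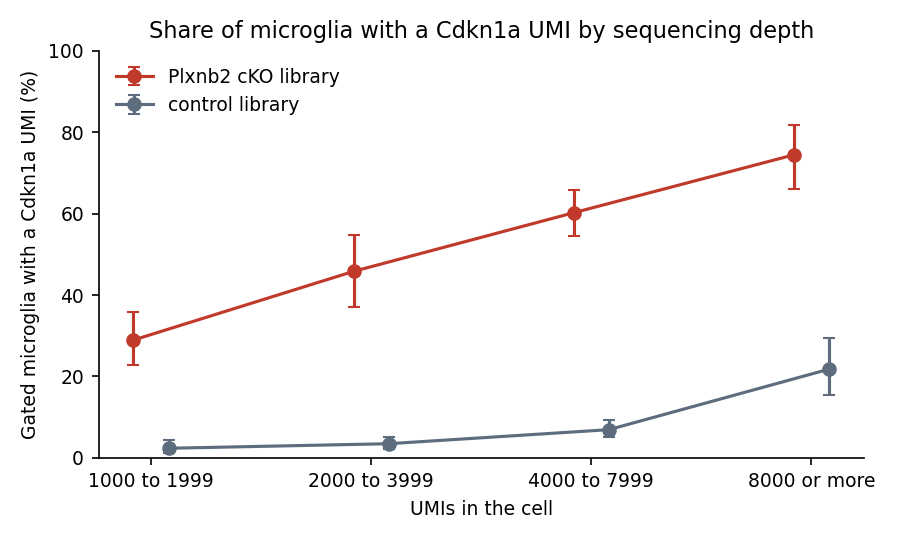
Share of gated microglia with a Cdkn1a UMI (%, vertical axis) in 4 ranges of UMIs per cell (horizontal axis), for the Plxnb2 cKO and the control library; bars are exact 95% binomial intervals. The cKO share is 28.9% in the shallowest and 74.4% in the deepest range, against 2.35% and 21.8% in the control library.

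The amount of Cdkn1a per positive cell also differed between libraries. Positive cells held a median of 4 Cdkn1a UMIs and at most 44 in the cKO library, against a median of 1 and at most 11 in the control library. At least 2 UMIs were found in 285 cKO cells, 72.5% of the positive cells, and in 33 control cells, 30.3%. In the cKO library, 108 cells held 1 UMI, 119 held 2 to 4 and 166 held 5 or more, and their Cdkn1a levels were 212, 489 and 1356 CPM. The variance of Cdkn1a UMIs over gated cells was 9.79 times their mean in the cKO library and 4.59 times in the control library, where Poisson counting of one level at equal depth would make them equal. Depth also varied between cells.

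Detection of Cdkn1a followed depth. Positive cells had a median of 5614 UMIs and negative cells 3162 in the cKO library, and 5180 and 3553 in the control library. Mitochondrial shares had medians of 2.67% in positive and 3.44% in negative cells of the cKO library. A shallow cell can miss the transcript, so the Cdkn1a-negative set can hold cells that express it, and levels below are compared as CPM.

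Just inside and outside the gate's limits, cKO cells with exactly 2 of 8 interferon genes were Cdkn1a-positive in 63.5% of 96 cells, and those with exactly 3, outside the gate, in 69.8% of 43 cells. With exactly 3 of 5 microglial markers, the lowest number accepted, 28.9% of 121 cKO cells were positive at a median of 1464 UMIs, and with exactly 2, outside it, 21.4% of 117. For cycle genes, exactly 2 of 5 gave 5 positive of 10 cKO cells and exactly 3, outside the gate, 6 of 7. The cycling cells that the gate leaves out were not low in Cdkn1a: of 48 cKO cells with at least 3 of 5 cycle genes, 43 held a Cdkn1a UMI, at 1132 CPM over all 48. Of 126 interferon-responsive cKO cells with at least 3 of the 8 interferon genes, 99 held one, at 636 CPM over all 126.

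The gate genes are described first, and the label is then set against homeostatic genes that the gate did not use. P2ry12, a purinergic receptor of homeostatic microglia, stood at 2310.5 CPM in Cdkn1a-positive and 2415 CPM in Cdkn1a-negative cKO cells, and at 1241 and 2222 CPM in the corresponding control cells. Tmem119 stood at 1253 and 1259 CPM in the cKO library, and at 637 and 1097 CPM in the control library. All 5 gate markers were detected in 77.1% of positive and 53.7% of negative cKO cells. Of 28 further homeostatic microglial genes, 0 were 1.5-fold or more higher and 0 lower in positive cKO cells, with a median log2 ratio of -0.08 (positive over negative). Over the 6588 genes with at least 20 CPM averaged over both cKO sets, called measured below, 2.55% were higher, 3.54% were lower and the median was -0.02. In the control library the same 28 genes had a median of -0.77, with 1 higher and 22 lower, where 9.96% of the 6588 genes were higher and 14.8% lower.

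Other cell types' transcripts moved with Cdkn1a in the control library. Endothelial-marked cells held a Cdkn1a UMI in 90.1% of cells in the cKO library and 82.5% in the control library, at 569 and 470.0 CPM. The 10 endothelial markers summed to 696 CPM in Cdkn1a-positive and 702 CPM in Cdkn1a-negative cKO microglia, but to 4271 and 678 CPM in control microglia, with no marker at 0 in any of the 4 sets. The 10 choroid plexus markers summed to 60.8 CPM in positive and 47.1 CPM in negative cKO cells, with 6 and 4 markers at 0, and to 21619 and 5451 CPM in control cells. At least 5 endothelial markers were detected in 8 of 393 positive and 0 of 363 negative cKO cells (at a count of 0, a share of up to 1.01%), and in 11 of 109 positive and 5 of 1749 negative control cells. The median ratio of the 6 measured endothelial markers was 0.02 in the cKO library, but 3.34 when the limit on interferon genes was removed, and 4.32 in the control library. Scrublet called 5.34% of positive and 3.31% of negative cKO cells doublets, and 15.6% and 7.78% in the control library. Their part in the control differences was not tested. For the main lists and genes, control values are also given for limited cells, those with none of Cldn5, Mog, Aqp4, Dcx and Cd3e and at most 1 endothelial marker. This limit uses no choroid plexus marker.

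Plxnb2 itself did not separate the sets. It stood at 46.5 CPM in Cdkn1a-positive and 42.1 CPM in Cdkn1a-negative cKO microglia, a log2 ratio of 0.14 (-0.32 to 0.61), and at 178 and 196 CPM in the control sets. The low-UMI barcodes of the cKO file had 49.3 CPM. The CPM of both cKO sets was thus near that of free RNA, but the part of free RNA in the cells' counts was not estimated. Which exons are floxed is not given in the sources used here, so a 3′ count is only a partial check of the deletion.

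Within the cKO library, p53 targets were among the genes higher in Cdkn1a-positive cells. Phlda3, which restrains Akt at the membrane, stood at 53.2 CPM in Cdkn1a-positive and 4.92 CPM in Cdkn1a-negative cells, and at 18.0 and 11.1 CPM in the control sets. Its log2 ratio in the cKO library was 3.34 (2.35 to 4.78), the highest among the genes eligible for the 12 highest described below. Bbc3, the BH3-only cell death inducer Puma, stood at 64.3 and 16.2 CPM in the cKO library, a ratio of 1.97 (1.36 to 2.69), and at 16.9 and 11.3 CPM in the control library. Gdf15, a stress cytokine, stood at 171 and 65.3 CPM in the cKO library, a ratio of 1.38 (1.06 to 1.73), and at 16.9 and 14.3 CPM in the control library. For all 3 genes the intervals of the positive and negative cKO sets lay apart. Cdkn1a-positive cKO cells outside the gate also carried these genes. In 43 cycling positive cells Phlda3, Bbc3 and Gdf15 stood at 69.2, 36.5 and 227 CPM, beside only 5 cycling negative cells. In 99 interferon-responsive positive cells they stood at 45.4, 41.8 and 101 CPM. In 27 interferon-responsive negative cells they stood at 17.7, 13.2 and 0 CPM, with overlapping intervals for Phlda3 and Bbc3.

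Effectors of cell death and arrest were among the other higher members. Bax, the pore-forming protein of the mitochondrial death pathway, stood at 302 and 153 CPM in positive and negative cKO cells (0.98, 0.76 to 1.20), and at 102 and 94.6 CPM in control cells. Ccng1, a cyclin induced by p53, stood at 58.4 and 25.3 CPM in cKO cells (1.19, 0.67 to 1.78), and at 35 and 25.4 CPM in control cells. Aen, an apoptosis-enhancing nuclease, had a cKO ratio of 1.30 (0.58 to 2.16), Trp53inp1 of 1.13 (0.67 to 1.65) and Btg2, an antiproliferative gene that is also an immediate early gene, of 1.11 (0.98 to 1.24). The remaining members at 1.5-fold or more were Ak1 (0.96), Rps27l (0.83), Dcxr (0.73) and Ddit4 (0.67).

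In all, 12 of the 22 measured members of the list of 40 p53 targets and regulators (Cdkn1a left out) were 1.5-fold or more higher in Cdkn1a-positive cKO cells and 0 were lower, with a median log2 ratio of 0.70. Among all measured genes 2.55% were higher. The 18 other members averaged under 20 CPM over both sets, among them Pmaip1 (the death inducer Noxa) at 27.8 and 7.02 CPM. The regulators moved little: Trp53, encoding p53, had a ratio of 0.07 (-0.28 to 0.43), Mdm2, its ubiquitin ligase and target, 0.43 (0.00 to 0.88), and Mdm4 -0.00.

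**Figure D2:**
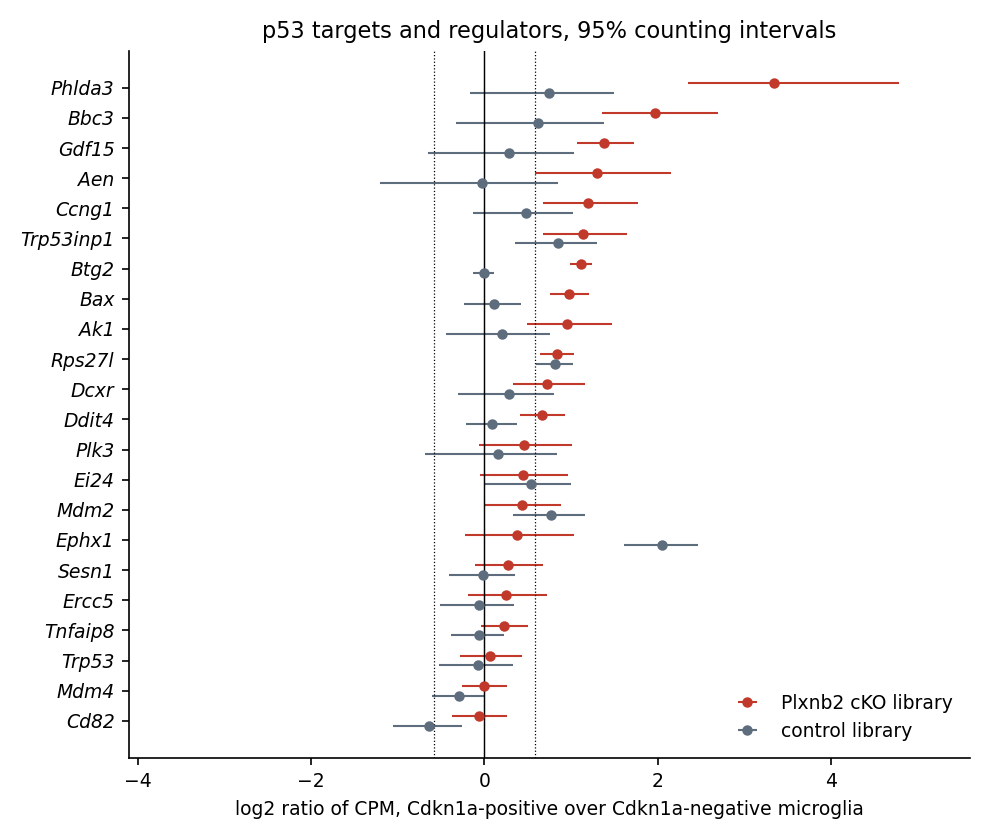
log2 ratio of CPM, Cdkn1a-positive over Cdkn1a-negative microglia (horizontal axis), for the 22 measured p53 targets and regulators (vertical axis), in the Plxnb2 cKO library and the control library, with 95% counting intervals and dotted lines at 1.5-fold. In the cKO library 12 genes lie at or beyond the right dotted line, led by Phlda3 at 3.34; in the control library 6 do.

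In the control library the same list had a median of 0.18, with 6 members higher and 1 lower. With cells limited by other-class markers, 40 positive and 957 negative control cells remained. There the median was 0.20 with 7 higher and 1 lower, and the homeostatic median was -0.10. The share over all genes was not computed for limited control cells, so their counts, here and below, are not set against one. Gdf15 had a ratio of 1.75 (0.56 to 2.69) on 10 UMIs in the positive set, and Bax 0.07 (-0.71 to 0.71). Phlda3 had 1 UMI in the positive set and 11 in the negative set, and Bbc3 had 3 and 36. In the cKO library the same limit left 156 positive and 182 negative cells, a median of 0.76 with 13 higher and 0 lower, and Phlda3 at 3.07 on 44 UMIs in the positive and 3 in the negative set. The endothelial markers, which this limit itself uses, had medians of -0.41 in the cKO and -0.54 in the control library. More genes of any kind were past the fold limit in limited cKO cells. By the gene filter of the counts over all genes given below, 237 of 3706 were higher and 215 lower there. Without the limit on cells, 90 of 3591 were higher and 81 lower. A share over all measured genes was not computed for limited cKO cells.

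Between genotypes, Cdkn1a-positive cells of the cKO over the control library had a median log2 ratio of 0.49 over the 22 members, with 9 at 1.5-fold or more higher and 1 lower. Over the 6588 genes 18.4% were higher and 12.8% lower. For Cdkn1a-negative cells the median was 0.12, with 4 higher and 2 lower, where 3.52% of genes were higher and 2.84% lower. The p53 list did not stand out among Cdkn1a-positive cells. In the same contrast 28 homeostatic genes had a median of 0.71 (17 higher, 0 lower) and 28 lysosome genes 0.63 (16 higher, 1 lower). Heat shock chaperones went the other way, at -0.56, as did NRF2 and oxidative stress genes, at -0.58. Positive control cells also carried more endothelial and choroid plexus RNA, whose part in these medians was not tested. Genotype and library cannot be told apart.

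The median of the p53 list was higher in cKO cells with more Cdkn1a. Over the cKO cells with 0 Cdkn1a UMIs, the list's median log2 ratio was 0.36 in cells with 1 UMI, 0.49 with 2 to 4 and 0.88 with 5 or more, with 5, 9 and 15 of the 22 members higher. Over all 6588 genes 5.07%, 5.07% and 4.02% were higher at these steps. Phlda3 stood at 4.92, 25.6, 27.5 and 77.3 CPM at 0, 1, 2 to 4 and 5 or more Cdkn1a UMIs, and Bax at 153, 226, 233 and 367 CPM. For both genes the levels at 1 and at 2 to 4 UMIs did not differ beyond their counting intervals. Not every member followed the steps: Aen stood at 12.6, 13.8, 42.0 and 33.3 CPM, and Mdm2 at 44.9, 29.5, 62.3 and 72.0 CPM. Median depth grew along the same steps, at 3162, 3643.5, 5132 and 6794.5 UMIs. With cKO cells split into 3 equal depth ranges, the list's positive-over-negative median was 0.71 in the shallow, 0.76 in the middle and 0.69 in the deep range, with 12, 14 and 12 members higher and 0 lower. Over all 6588 genes 22.6%, 8.65% and 5.45% were higher in these ranges. Positive and negative cells had median depths of 1648 and 1452 UMIs in the shallow, 4800 and 4505 in the middle and 8571.5 and 7294 in the deep range. The median in each cKO range was close to that over all cKO cells. In the control library, split by its own depths, the list's median was 0.65 in the shallow, 0.28 in the middle and 0.24 in the deep range. These control ranges held 19, 22 and 68 positive cells, and their medians over all genes were 0.21, 0.08 and -0.06.

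**Figure D3:**
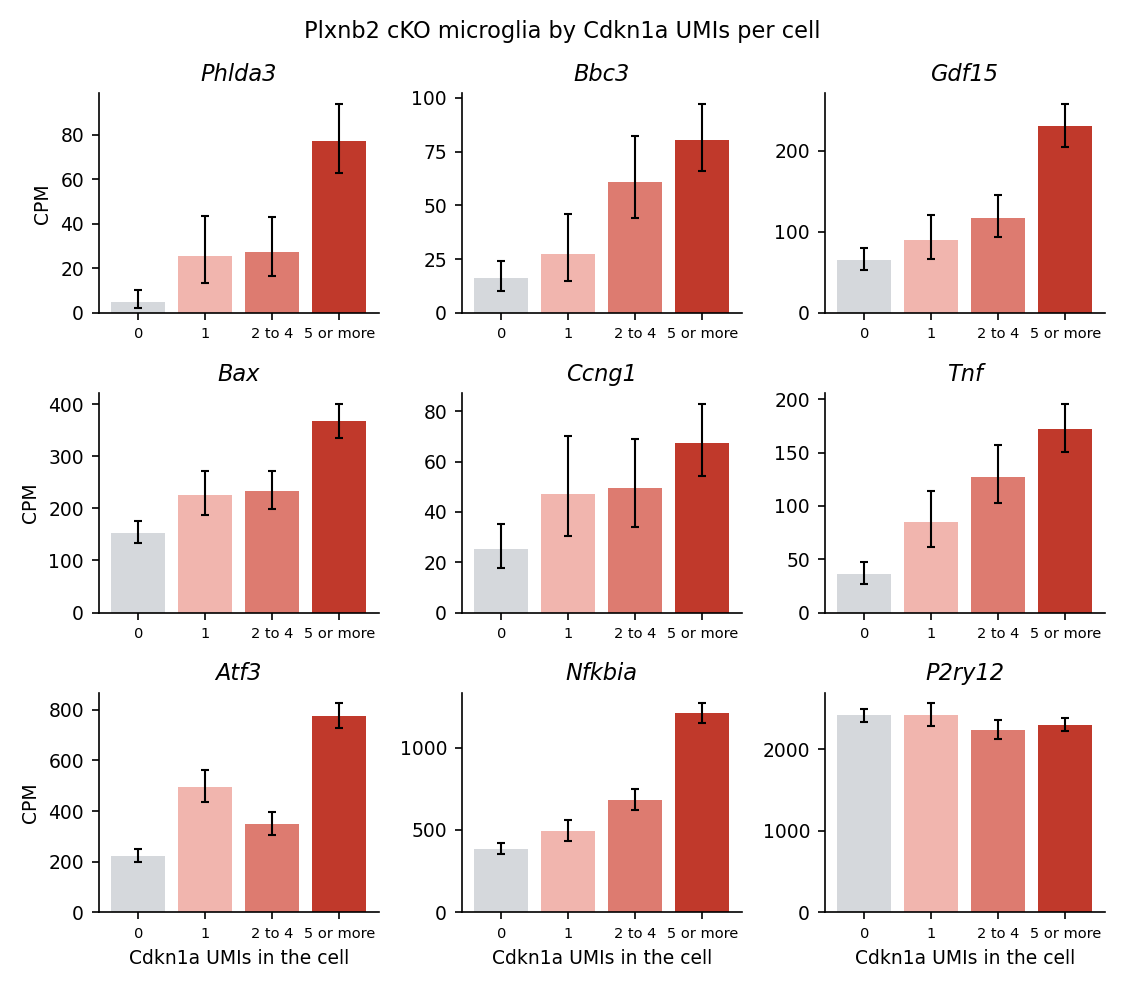
CPM (vertical axis) of 9 genes in Plxnb2 cKO microglia grouped by Cdkn1a UMIs per cell (horizontal axis; 363, 108, 119 and 166 cells from left to right); bars are levels with exact 95% Poisson intervals. Phlda3, Bbc3, Gdf15, Bax, Ccng1, Tnf and Nfkbia are highest in cells with 5 or more Cdkn1a UMIs, as is Atf3, while P2ry12 stays between 2242 and 2424 CPM.

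The share of cells in which a p53 target was detected varied widely. Phlda3 was detected in 25.7% of positive and 1.93% of negative cKO cells, and in 5.85% and 0.83% after thinning to 1000 UMIs. Bax was detected in 70.0% of positive and 39.1% of negative cKO cells, and in 26.7% and 12.4% after thinning. Gdf15 was carried by few cells, 12.2% of positive and 2.75% of negative, and 1 cell held 7.06% of its UMIs. In low-UMI barcodes of the cKO file Phlda3 stood at 28.1 CPM and Bax at 97.5 CPM, so the negative cells were below the free RNA for Phlda3 and above it for Bax, and the positive cells above it for both.

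Inflammatory cytokines and chemokines had the highest median of the lists in the cKO library. Of 17 measured members, 9 were 1.5-fold or more higher in Cdkn1a-positive cKO cells and 0 lower, with a median of 1.02. Tnf stood at 142 and 36.5 CPM in positive and negative cKO cells (1.95, 1.54 to 2.41), and at 80.1 and 30.2 CPM in control cells. Outside the gate, Tnf stood at 310 CPM in cycling positive cKO cells. In interferon-responsive cKO cells it stood at 158 CPM in positive and 70.6 CPM in negative cells. In limited control cells Tnf stood at 22.2 and 28.8 CPM (-0.22), on 4 UMIs in the positive set. Ccl4, a chemokine that microglia express strongly, stood at 4717 and 2014 CPM in cKO cells (1.23, 1.17 to 1.29), and at 2607 and 1996 CPM in control cells. In limited cells its ratio was 1.97 (1.85 to 2.09) in the cKO library and 1.71 (1.62 to 1.80) in the control library. Limited control cells held 7260 CPM in the positive and 2218 CPM in the negative set. Osm, a cytokine of the interleukin-6 family, had a ratio of 1.54 (0.98 to 2.18), and Csf1, the growth factor that sustains microglia, 1.41 (0.96 to 1.90). Il1b (2.73) was detected in 5.85% of positive and 1.65% of negative cells, and 1 cell held 16.4% of its UMIs. The high ratios of Cxcl9 and Cxcl2 rested on single cells, which held 99.0% and 51.0% of their UMIs. In the control library the list's median was -0.28, with 2 higher and 6 lower, and 0.48, with 8 higher and 2 lower, in cells limited by other-class markers as above.

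NF-kB feedback genes and immediate early genes were higher with them. Of 15 measured genes of the NF-kB pathway, 7 were 1.5-fold or more higher in positive cKO cells and 0 lower (median 0.42), including the inhibitor Nfkbia at 919.7 and 387 CPM (1.25, 1.11 to 1.39), Tnfaip3, which encodes the inhibitor A20 (1.34), Cd83 (1.28) and Nfkbiz (1.24). The subunits Nfkb1 (0.07) and Rela (-0.20) were near equal. Of 21 measured immediate early and dissociation genes, 14 were higher and 0 lower (median 0.67). Atf3, a stress-induced transcription factor, stood at 603 and 223 CPM (1.43, 1.26 to 1.61), Dusp1 at 475 and 184 CPM (1.37, 1.17 to 1.57) and Fos at 603 and 271 CPM (1.15, 0.99 to 1.32). In control cells the medians were -0.32 for the NF-kB list and -0.02 for the immediate early list. In limited control cells they were 0.02, with 6 higher and 4 lower, and 0.36, with 6 higher and 1 lower. Atf3 in limited cells had a ratio of 0.63 (0.39 to 0.88) in the cKO library and 1.11 (0.75 to 1.44) in the control library. Its higher level in positive cells was thus seen in both libraries there. Nfkbia in limited cells had a ratio of 1.27 in the cKO library and 0.53 (0.21 to 0.82) in the control library. The part of dissociation in these differences was not tested.

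**Figure D4:**
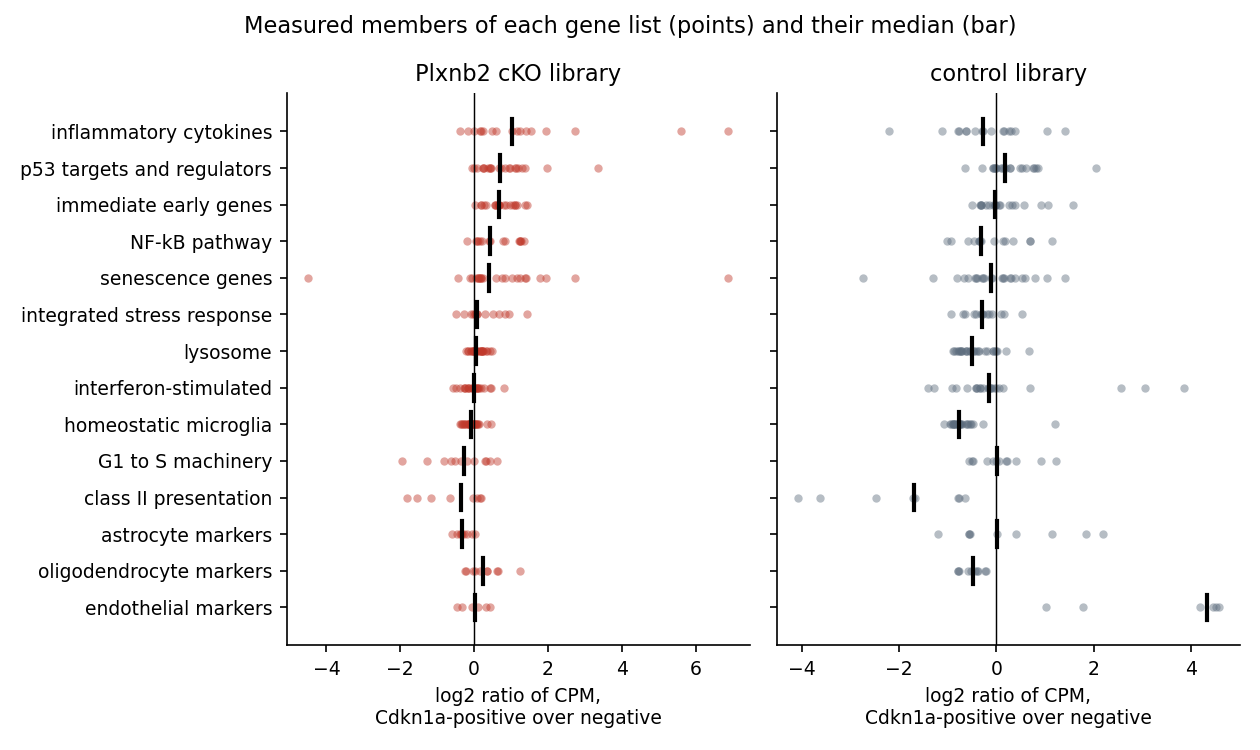
log2 ratio of CPM, Cdkn1a-positive over Cdkn1a-negative microglia (horizontal axis), for every measured member (points) of 14 gene lists (vertical axis) and the list median (bar), in the Plxnb2 cKO library (left) and the control library (right). Medians in the cKO library run from 1.02 for inflammatory cytokines to -0.35 for class II presentation, and the endothelial median is 0.02 in the cKO and 4.32 in the control library.

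Steps with Cdkn1a amount were also seen for these lists. In cKO cells with 1, 2 to 4 and 5 or more Cdkn1a UMIs, the cytokine median over cells with 0 was 0.20, 0.75 and 0.85, that of the NF-kB list 0.03, 0.41 and 0.67, and that of the immediate early list 0.15, 0.39 and 0.95. At 1 UMI these 3 medians were below the 0.36 of the p53 list. The homeostatic list stayed at -0.05, -0.10 and -0.07.

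Senescence was covered by a list of secretory and senescence genes, of which 11 of 24 measured members were higher and 1 lower (median 0.41). Most of the higher members are also in the cytokine, p53 or NF-kB list. Of the other CDK inhibitor genes, Cdkn1b alone reached the level set for measured genes. Cdkn1b (p27) stood at 80.2 and 84.3 CPM in cKO cells (-0.07, -0.40 to 0.27), and Cdkn2a (p16 and p19Arf), a common mark of senescence, at 0.79 and 3.51 CPM, under the level set for measured genes. The single lower member, Spp1, had 88.0% of its UMIs in 1 cell.

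Among 12 measured genes of the G1 to S transition, 4 were 1.5-fold or more lower in positive cKO cells and 1 higher, with a median of -0.27. The gate left out cKO cells with at least 3 of 5 cycle genes, and 43 of those 48 cells were Cdkn1a-positive. The gate thus took cycling cells mostly from the positive set, and its part in the lower genes was not tested. The replication helicase genes Mcm7 (-1.27, -1.87 to -0.68) and Mcm3 (-0.82, -1.34 to -0.30) and the kinase gene Cdk4 (-0.62) were lower. Rbl2, a pocket protein that represses E2F targets, was higher at 0.62 (0.20 to 1.06). Ccnd2 (-1.96) had 45.3% of its UMIs in 1 cell, and Ccnd1 stood at 233 and 172 CPM (0.43). Of the Bcl2 family, 4 of 11 measured genes were higher and 1 lower in positive cKO cells. These were Bbc3 and Bax with the survival genes Mcl1 (0.75, 0.60 to 0.91) and Bcl2a1b (0.73), the last with near-identical copies that counting may split, against Bcl2 at -0.86 (-1.51 to -0.20). Both death-promoting and survival members were thus among the higher ones.

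Of the interferon-stimulated genes outside the gate, 1 of 24 measured members was higher and 0 lower, with a median of -0.01. The gate limits interferon genes in both sets, so this comparison cannot decide whether such genes follow Cdkn1a. The interferon-responsive cKO cells left out by the gate held a Cdkn1a UMI in 78.6% of cells, against 52.0% of gated cKO cells. Their median depths differed, at 8340 and 4649 UMIs. After thinning to equal depth the shares were 35.7% (27.4 to 44.7%) and 31.0% (27.7 to 34.4%), with overlapping intervals. The Cdkn1a levels were 636 CPM (594 to 680) and 567 CPM (544 to 591). The 24 interferon-stimulated genes differed between the libraries in both sets, with cKO over control medians of 0.99 in Cdkn1a-positive and 0.99 in Cdkn1a-negative cells. In the integrated stress response list, 4 of 14 measured members were higher and 0 lower (median 0.07): Atf3, Ppp1r15a (0.94), Cebpb (0.83) and Ddit4, while Atf4 stood at 0.28. Lysosome genes numbered 0 higher and 0 lower of 28 (median 0.05). Of 8 class II presentation genes 4 were lower, H2-Aa, H2-Ab1, H2-Eb1 and Cd74, and 1 cell held 48.1%, 36.2%, 54.4% and 21.3% of their UMIs. H2-Eb1 and Cd74 were higher (1.18 and 0.62) in cells limited by other-class markers.

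Over all genes, few were past 1.5-fold. Of 3591 genes with at least 50 CPM in either cKO set and 30 UMIs over both, 90 were 1.5-fold or more higher in Cdkn1a-positive cells (2.51%) and 81 lower (2.26%). Among the 12 highest with at least 100 UMIs, detected in at least 10% of the higher set, were Phlda3, Snhg15, Bbc3, Tnf, Mmp2, Osm, Ccrl2, Atf3, Csf1, Gdf15 and Cst7. Snhg15, a spliced noncoding RNA and host of small nucleolar RNA, stood at 77.4 and 16.2 CPM in cKO cells (2.23, 1.63 to 2.95), and at 13.5 and 18.7 CPM in control cells. Mmp2, a matrix protease, had a ratio of 1.62 (1.01 to 2.34), Ccrl2, a chemerin-binding receptor, 1.52 (1.26 to 1.81), and Cst7, a cystatin of activated microglia, 1.38. In the control library 785 of 4132 genes were 1.5-fold or more higher in positive cells (19%) and 575 lower (13.9%).

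Among the 12 lowest were Gria2, Slc6a11, Fabp5, Slc4a4, Bc1, Otud4, Hmgcs1, Lsamp, Ntrk2 and Pantr1, with ratios from -1.20 to -0.82. Several are genes of astrocytes or neurons, such as the glutamate receptor gene Gria2 at 96.5 and 221 CPM and the GABA transporter gene Slc6a11 at 53.6 and 110.3 CPM. The 10 astrocyte markers summed to 3075 CPM in positive and 3773 CPM in negative cKO cells, with none at 0 and a median ratio of -0.33 over the 9 measured. The 10 oligodendrocyte markers summed to 3068 and 2557 CPM, with none at 0. Their part in the lower genes was not tested.

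**Figure D5:**
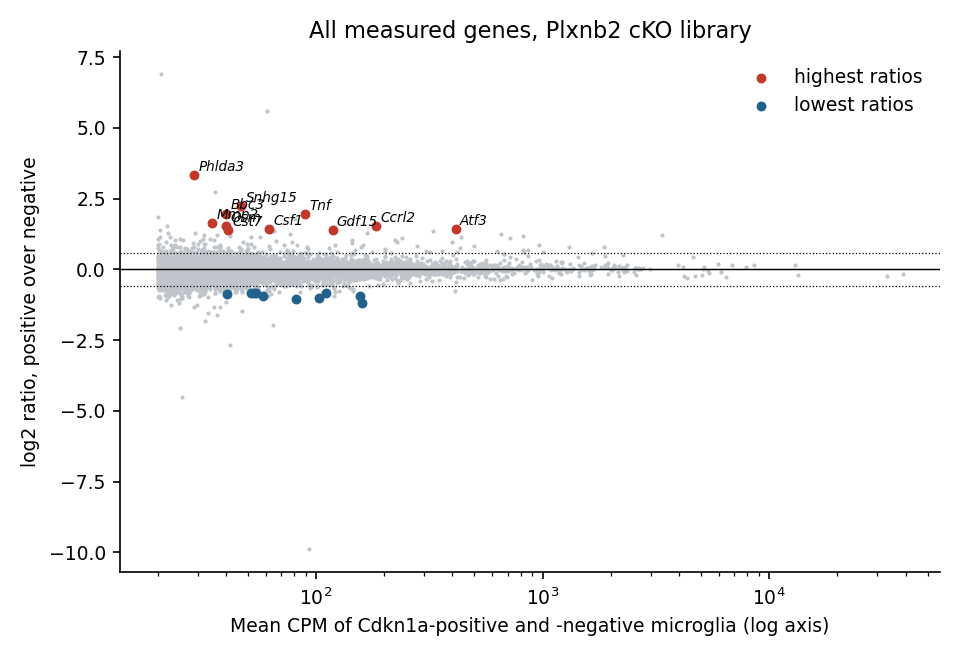
log2 ratio of CPM, Cdkn1a-positive over Cdkn1a-negative cells (vertical axis), against mean CPM of both sets (horizontal log axis) for genes with a mean of at least 20 CPM in the Plxnb2 cKO library, Cdkn1a left out, with genes among the 12 highest (red, named) and 12 lowest (blue) of the naming rule and dotted lines at 1.5-fold. The highest red gene is Phlda3 at 3.34. Grey points beyond it, such as Cxcl9, rest mostly on 1 cell or were detected in too few cells to be eligible for the 12 highest.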

How the data were processed

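Per the submitters' processing notes, reads were processed with Cell Ranger 7.1.0 on mm10, and the deposited values are whole-number UMI counts that were not normalized. As deposited, the Plxnb2 cKO matrix is unfiltered (2377349 barcodes, 63785513 UMIs) and the control matrix is limited to 10942 barcodes (64756949 UMIs), so the stated floors did the cell calling in the first, and the step that chose the control barcodes is not given in the sources used here. After the floors 5398 cKO and 8068 control barcodes remained. They shared 8 barcode sequences, none among Cdkn1a-positive cells.

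UMIs were summed per set of cells and expressed as CPM with exact Poisson intervals. A log2 ratio used a pseudocount of 0.5 UMI and an exact conditional interval. Shares carry exact Clopper-Pearson intervals. Called higher or lower means 1.5-fold or more, with no test, since each genotype is 1 library and the number of animals in each is not given in the sources used here. All intervals and floors cover counting error only. Scrublet, run in scanpy 1.11.5 per library with 6% expected doublets, called 3.58% of cKO and 5.57% of control barcodes, which were kept and left out in an alternative. Thinning drew 1000 UMIs from each cell. The ratio code was tested on simulated data. Oligodendrocyte-, astrocyte- and endothelial-marked cells had at least 7 of 10 markers and none of the 5 microglial markers, a rule set after values were seen. Oligodendrocyte-marked cells could show at most 2 endothelial markers, and astrocyte-marked cells at most 3 oligodendrocyte markers. Of 32285 genes, 32158 were in GENCODE vM21, which gave positions. Promoter windows are from RefSeq. Python 3.11.15, numpy 2.4.6, scipy 1.17.1, pandas 2.3.3 and matplotlib 3.10.9 were used.

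The cells and all 31 gene lists were chosen with earlier results of these data known. Genes were named by rule: the gate genes, Cdkn1a, Plxnb2 and Cx3cr1, the 12 highest and 12 lowest ratios in the cKO library, and up to 4 members of each list with the largest absolute ratio. Other list members named, such as Ccng1, Ccl4 and the regulators of p53, were chosen after their values were seen. Some genes meeting it are left out here. Alternatives changed the floors, the gate, the depth, the scaling and the filters, each in turn.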

Additional observations from a re-analysis of the deposited data

Results flagged for a closer look

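For 13 of the 139 named genes the ratio of Cdkn1a-positive over Cdkn1a-negative microglia was past 1.5-fold in opposite directions in the 2 libraries. In both the interval lay clear of equal levels. Many genes were named for large cKO ratios, and the share of such opposite ratios over all genes was not computed. The count is therefore not read as a result about these genes. With 1 library per genotype the difference between the ratios was not tested.

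Lower in positive cells of the cKO library but higher in those of the control library were the survival gene Bcl2 (log2 ratios -0.86 and 1.47), Mcm7 (-1.27 and 0.91), Ccnd2 (-1.96 and 1.23), the small heat shock gene Hspb1 (-0.69 and 2.22), the metallothionein gene Mt2 (-0.59 and 1.76), the integrin gene Itgb8 (-0.98 and 1.41), Ntrk2 (-0.82 and 1.46), Ezr (-0.61 and 2.30) and the astrocyte water channel gene Aqp4 (-0.73 and 1.69). Aqp4 is itself limited by the gate, as 1 of the 5 other-class genes of which a cell could show at most 1. The summed astrocyte markers, measured in the same cells, were 3075 CPM in positive and 3773 CPM in negative cKO cells, and 6928 and 4087 CPM in the control library. The endothelial markers summed to 696 and 702 CPM in the cKO library, and to 4271 and 678 CPM in the control library. For the choroid plexus markers the sums were 60.8 and 47.1 CPM, and 21619 and 5451 CPM. The part of these transcripts in the opposite ratios was not tested.

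Higher in positive cells of the cKO library but lower in those of the control library were the haem oxygenase gene Hmox1 (1.15 and -0.61), Hspa1a (0.96 and -1.30), its near-identical copy Hspa1b (0.65 and -0.94) and Mrc1 (1.67 and -3.80). Mrc1, a border macrophage gene, is limited by the gate and had 0 UMIs in the positive control cells, so the last ratio depends on the pseudocount.

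Barcodes of at least 500 but under 1000 UMIs, below the floor used for cells, also carried Cdkn1a when they passed the marker gate: 13.3% of 135 (8.10 to 20.3%) in the cKO library and 3.01% of 166 (0.985 to 6.89%) in the control library.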

How the results depend on the processing

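No paired analysis was possible because each genotype is 1 library, and for the same reason no replicate could be left out. The share of cKO microglia with Cdkn1a was 60.1% with a floor of 2000 UMIs, 56.9% with a mitochondrial limit of 5%, 56.4% with at least 4 microglial markers, 55.8% with no interferon limit, 37.7% when 2 Cdkn1a UMIs were required, 31.0% thinned to 1000 UMIs and 46.2% in cells limited by other-class markers, a limit added after seeing the data. The control share was 1.78% with 2 UMIs required, 1.72% thinned and 4.01% limited. The 90 higher genes became 177 with no interferon limit, 418 thinned, 155 as means of per-cell CPM, 882 with no filter beyond 10 UMIs and 237 in limited cells. The 81 lower genes became 309 thinned, 144 with depth-weighted negative cells, 1374 with no such filter and 215 in limited cells. The cause was not tested.

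The p53 median of the cKO library stayed between 0.55 and 0.83 under all 13 alternatives, and Phlda3 between 2.62 and 3.86. The cKO endothelial median, 0.02, was 3.34 when the interferon limit was removed. Of 1807 alternative values for 139 named genes, 1548 kept their size within the main counting interval, 241 moved and 18 reversed. Thinning reversed Pfkfb3 (-0.10), Ermn (-0.89), Mal (-1.49), Cxcl9 (-4.57), Itgb8 (0.63), Cldn5 (-0.19), H2-Eb1 (0.60) and Ifit1 (1.64). Limiting cells by other-class markers reversed Mal (-1.52), Cldn5 (-0.60), H2-Eb1 (1.18) and Cd74 (0.62), and in the control library the class II median (0.032). Leaving out doublets reversed Mal (-0.52), and per-cell means reversed Mal (-0.30). Removing the interferon limit reversed Hspb1 (1.21), Usp18 (0.43) and Ifit1 (1.24), and requiring 4 microglial markers reversed Fabp5 (0.23).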

Other observations

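Several other gene groups had small median ratios of Cdkn1a-positive over Cdkn1a-negative cKO microglia. Over the 6588 measured genes 2.55% were higher and 3.54% lower. Of 19 measured disease-associated microglial genes 2 were 1.5-fold or more higher and 2 lower (median 0.14). The lower ones, Gpnmb and Spp1, had 94.0% and 88.0% of their UMIs in 1 cell. Of 23 actin and migration genes 0 were higher and 1 lower (median 0.10). Of 7 measured plexins, neuropilins and class 4 semaphorins, 0 were higher and 1, Sema4b, lower at -0.63 (median 0.10). NRF2 targets numbered 2 higher and 0 lower of 17 (median 0.11) in the cKO library. In the control library 11 were higher and 2 lower (median 0.69), where 9.96% of the 6588 genes were higher and 14.8% lower. Positive control cells also carried more endothelial and choroid plexus transcripts. Their part in that difference was not tested. Among 7 DNA damage genes 1, the stress-induced Gadd45b, was higher at 1.86 (median 0.12).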
